A study of Mus musculus with 4 samples.

Results

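The genes that encode the bulk of the histones in chromatin lie in clusters, and their mRNAs are made when DNA is replicated. Expression of these replication-dependent genes was compared between peritoneal B1a cells and splenic follicular B2 cells. The members are all gene symbols in the deposited tables that start with Hist1h, Hist2h, Hist3h or Hist4h, 68 of 20599 symbols, chosen by name and not by their counts. The letters after the cluster number give the class. The classes hold 6 H1, 18 H2A, 19 H2B, 12 H3 and 13 H4 genes.

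RNA-Seq libraries from sorted cells of wild-type C57BL/6 mice were used, 2 of B1a cells and 2 of B2 cells. The methods describe these mice as littermate controls of animals that lack Dnmt3a in their B cells, and the study counts 2 animals for each cell type. B1a cells were sorted from the peritoneal cavity as IgM+ CD5+ CD23- B cells, and follicular B2 cells from the spleen by IgD, IgM and CD21. The methods give 35000 to 100000 sorted B1a cells from mice of 4 weeks and 100000 sorted B2 cells from mice of 8 weeks, whereas the labels give 4 weeks for every library. The groups thus differ in cell type and tissue at once, and by the methods in age as well, and these cannot be told apart.

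Histones H2A, H2B, H3 and H4 form the core of the nucleosome, and the linker histone H1 binds the DNA where it enters and leaves that core. Most replication-dependent histone mRNAs end in a conserved stem-loop in place of a poly(A) tail. The stem-loop binding protein SLBP holds this structure and guides 3' end cutting, export, translation and decay of the mRNA. In cycling cells these mRNAs are abundant in S phase and low outside it, while resting lymphocytes hold little of them. The sources differ on how the RNA was selected. The labels name a kit that removes ribosomal RNA and so keeps mRNAs without a poly(A) tail, whereas the study's discussion speaks of enrichment for polyadenylated RNA, under which the histone levels would cover only the transcripts with a tail. Which of these holds was not tested, and every histone level given here has that limit. In bulk libraries, fewer cells that make an mRNA and less of it per cell cannot be told apart.

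The library totals lay between 11032732 and 18588623 counts, so that the floor of 3 counts corresponds to between 0.161 and 0.272 CPM (counts scaled to a common library total), a limit that covers counting error only. Levels are given as CPM scaled by TMM, an edgeR factor that sets most genes level between libraries, and levels of different genes are compared as TPM, which divides by gene length. Over the 12078 tested genes, which are not independent of each other, log2 CPM correlated less well within the B1a pair (Pearson's r = 0.836) than within the B2 pair (r = 0.966). The B cell genes Cd79a and Ms4a1, from a list of 8 B cell markers, were read at 1151 to 1755 CPM and 615 to 1158 CPM over the 4 libraries. They were read in both groups, so they do not check which libraries are B1a and which B2. The members held 0.339% and 0.320% of all counts in the B1a replicates and 0.174% and 0.206% in the B2 replicates.

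The stem-loop was searched as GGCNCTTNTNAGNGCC over the whole length of the GENCODE vM21 transcripts of the GRCm38 build, on the sense strand. It was found in 44 of 68 members, with at least 1 in each class, and in 51 of 21901 protein-coding genes (0.233%). Of the 24 members without a match, 16 have annotated transcripts that end under 40 bases after the stop codon. The sites began 21 to 58 bases after the stop codon. The lines below show the stem-loop, in capitals, of the members that passed the test between the cell types and have a match, and of an H3 and an H4 member for comparison. The coordinates are those of the 16 bases in capitals.
Hist1h1c, chr13:23739512-23739527, forward strand: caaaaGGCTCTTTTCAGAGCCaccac
Hist1h1d, chr13:23555787-23555802, forward strand: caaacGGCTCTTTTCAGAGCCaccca
Hist1h1e, chr13:23621782-23621797, reverse strand: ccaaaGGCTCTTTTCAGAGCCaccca
Hist1h2ap, chr13:21833029-21833044, reverse strand: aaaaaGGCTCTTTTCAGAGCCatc
Hist1h3e, chr13:23561903-23561918, reverse strand: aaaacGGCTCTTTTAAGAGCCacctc
Hist1h4d, chr13:23581950-23581965, forward strand: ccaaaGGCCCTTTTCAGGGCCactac
The first 4 sites share the form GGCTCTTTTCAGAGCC, which 26 members carry. Hist1h4d carries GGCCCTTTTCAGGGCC, found in 7 members, and Hist1h3e carries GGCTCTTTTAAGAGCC, found in 6. Hist1h1c, Hist1h1d and Hist1h1e each have a GENCODE transcript that runs more than 100 bases past the loop, as do 22 of the 44 members with a match.

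All 5 classes were higher in B1a than in B2 cells when their members were summed, by 1.54-fold for H4 to 2.06-fold for H2B. The H1 class summed to 1313 and 1223 CPM in B1a replicates 1 and 2 and to 644 and 662 CPM in B2 replicates 1 and 2. The means were 1268 ± 63.5 and 653 ± 12.9 CPM (SD, n = 2 each), a 1.94-fold difference, which ran from 1.85 to 2.04 when single libraries of the groups were set against each other. H1 held the most counts of any class, and its replicates lay close together in both cell types.

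The H2A class summed to 545 and 501 CPM in B1a and 251 and 305 CPM in B2, a 1.88-fold difference. H2B reached 692 and 702 CPM in B1a against 296 and 379 CPM in B2, or 2.06-fold. These classes pair with each other in the nucleosome and had ratios of similar size, and the B1a libraries lay above the B2 libraries in both. H3 summed to 438 and 399 CPM in B1a and 194 and 263 CPM in B2, a 1.83-fold difference. H4 summed to 525 and 502 CPM in B1a and 275 and 393 CPM in B2, a 1.54-fold difference that ran from 1.28 to 1.91 over single libraries. The H4 groups lay closest together, but they did not overlap in CPM or in TPM. With 2 libraries a group, the smallest p of an exact permutation test (two-sided) is 0.33, and no test was run on the class sums.

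**Figure D1:**
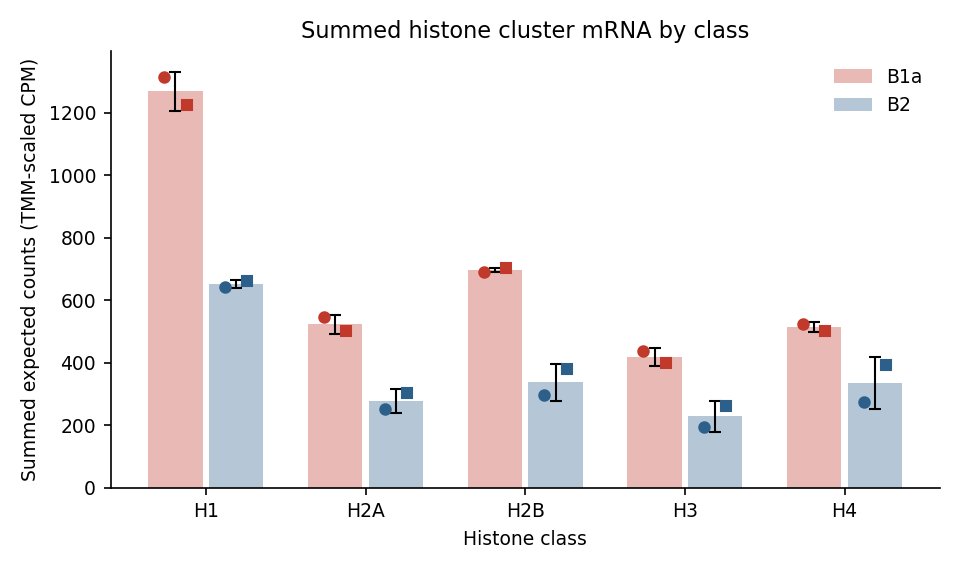
Summed TMM-scaled CPM of the members of each histone class (vertical axis) for B1a (red) and B2 (blue) libraries; bars are means, error bars the SD of 2 libraries, circles replicate 1 and squares replicate 2. Both B1a libraries lie above both B2 libraries in all 5 classes, from 1.54-fold for H4 to 2.06-fold for H2B.

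On the TPM scale the median of all tested genes lay at a log2 ratio of -0.27, against -0.03 on the CPM scale, and the class ratios were lower by about the same shift, at 1.65 for H1, 1.62 for H2A, 1.80 for H2B, 1.47 for H3 and 1.32 for H4. TPM also allows the classes to be set against each other. H4 mRNA stood at 1.01 and 0.905 times the H2B mRNA in the B1a replicates and at 1.23 and 1.37 times in the B2 replicates. H3 stood at 0.516 and 0.546 times H4 in B1a and at 0.486 and 0.467 times in B2. The balance of H4 to H2B was therefore lower in both B1a libraries, while that of H1 to H2B, at 1.15 and 1.01 in B1a and 1.33 and 1.05 in B2, overlapped.

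Of the 64 members that passed the filter on low counts, 6 were called in the edgeR fit across all genes, at a Benjamini-Hochberg adjusted p under 0.05, and all 6 were higher in B1a cells. They are the linker histone genes Hist1h1c, Hist1h1d and Hist1h1e, the H2A gene Hist1h2ap, and the H2B genes Hist1h2bc and Hist1h2bn. This is 9.38% of the tested members, beside 5.74% of all tested genes called in either direction and 4.24% called higher in B1a cells, so the share of members called lay near the background. The call split of all genes, 512 higher and 181 lower in B1a, was 266 and 233 with limma on log2(TPM + 1), a fit that differs in scale, test and filter at once, and in which 7 members were higher and 1 lower. The median log2 fold change was 0.67 over the tested members and -0.03 over all tested genes. It was positive in 49 of 64 tested members (76.6%) and in 48.5% of all tested genes. An unadjusted p under 0.05 was found for 21 members, 20 of them higher in B1a.

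Both B1a libraries lay above both B2 libraries in 25 of 64 tested members (39.1%), beside 25.3% of all tested genes. The opposite order was found in 4 members (6.25%), Hist1h1b, Hist1h3g, Hist1h4b and Hist2h2bb, beside 29.1% of all tested genes. Of the 64 members, 50 reached the count limit of the filter in all 4 libraries, 13 in another mixture of libraries, and 1, Hist1h3g, in the 2 B2 libraries alone. The tested members are therefore not all members, while the class sums hold all 68. The 4 members not tested are Hist1h1t, Hist1h2aa and Hist1h2ba, at 0 counts in every library, and Hist1h2ah, with 22.4 counts in B2 replicate 1 and 0 in the others.

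The difference between the cell types was clearest in the members of highest level. Among the 16 tested members with the highest mean, from 41.2 to 464 CPM, all 16 had a positive log2 fold change, with a median of 0.97 and a range of 0.37 to 1.70, and the groups did not overlap in 15. Hist2h2aa1 was the exception. Among the next 16, from 17.0 to 37.3 CPM, 14 were positive with a median of 0.78, and the groups did not overlap in 8, 7 of them higher in B1a. Among the 16 lowest, from 1.02 to 7.23 CPM, 6 were positive and no member was higher in both B1a libraries.

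Replicates also lay further apart in the lowest members. Between the B1a replicates, the median absolute log2 ratio (of CPM + 0.5) was 0.31 for the 16 highest members and 3.15 for the 16 lowest. Between the B2 replicates it was 0.35 and 1.13. The 6 calls all fall among the 16 highest members, where the median standard error of the log2 fold change was 0.23, against 1.74 among the lowest.

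**Figure D2:**
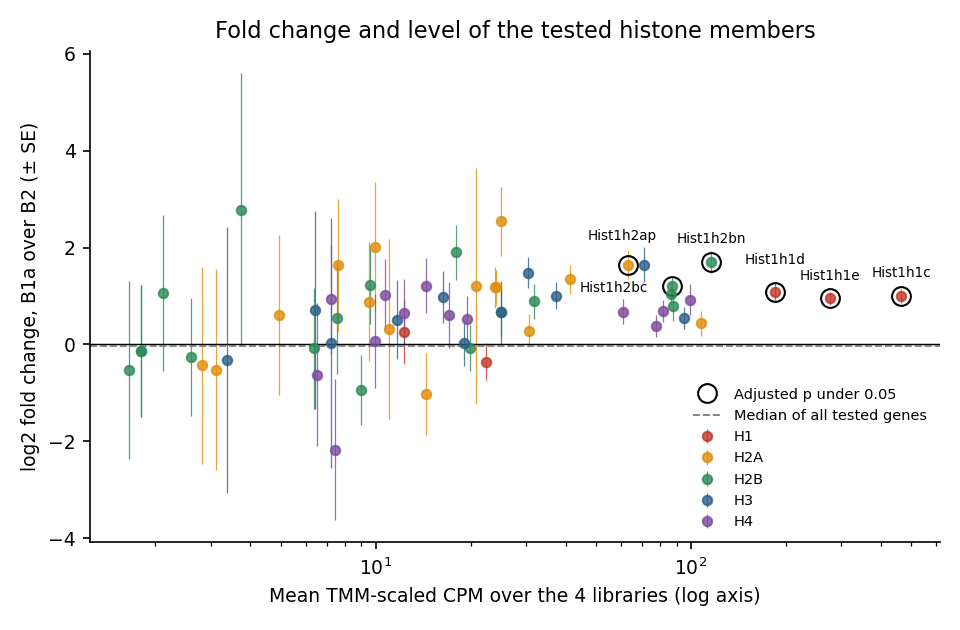
log2 fold change of B1a over B2 with its standard error (vertical axis) against mean TMM-scaled CPM over the 4 libraries (horizontal, log axis) for the tested members, coloured by class; rings mark the 6 members with an adjusted p under 0.05 and the dashed line the median of all tested genes. The 16 members above 41 CPM all lie above 0, while the lowest members scatter on both sides; Hist1h3g, at 0 in both B1a libraries, is left out.

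Of the 6 calls, 3 were linker histone genes. Hist1h1c, listed by RefSeq as H1f2 at chr13:23738807-23739531, had 685 and 552 CPM in the B1a replicates and 307 and 312 CPM in the B2 replicates. Both B1a libraries lay above both B2 libraries, and the log2 fold change was 1.00 (SE 0.14, n = 2 each, edgeR adjusted p = 0.016). It made up 47.1% to 54.2% of the H1 TPM in every library, the largest share of the class.

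Hist1h1e, or H1f4, at chr13:23621777-23622558, had 376 and 353 CPM in B1a and 178 and 199 CPM in B2. Its log2 fold change was 0.95 (SE 0.13, edgeR adjusted p = 0.0144), and the groups did not overlap. Hist1h1d, or H1f3, at chr13:23555032-23555807, had 225 and 278 CPM in B1a and 125 and 112 CPM in B2. Its log2 fold change was 1.09 (SE 0.17, edgeR adjusted p = 0.0205), again without overlap. These 3 genes encode the linker histones H1.2, H1.4 and H1.3 of somatic cells and together held 94.3% to 98.0% of the H1 TPM in each library.

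The other linker histone genes were not called. Hist1h1b, which encodes H1.5, had 17.1 and 22.3 CPM in B1a and 26.4 and 23.9 CPM in B2, so both B1a libraries lay lower, with a log2 fold change of -0.35 (SE 0.38, edgeR adjusted p = 0.679). Hist1h1a, which encodes H1.1, had 9.58 and 17.2 CPM in B1a and 7.28 and 15.1 CPM in B2, and the groups overlapped (log2 fold change 0.26, SE 0.66, edgeR adjusted p = 0.886). Hist1h1t, the testis linker histone, had 0 counts in every library. That Hist1h1a and Hist1h1b missed the threshold does not show that they were equal in both cell types, and the difference from the other genes was not tested.

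**Figure D3:**
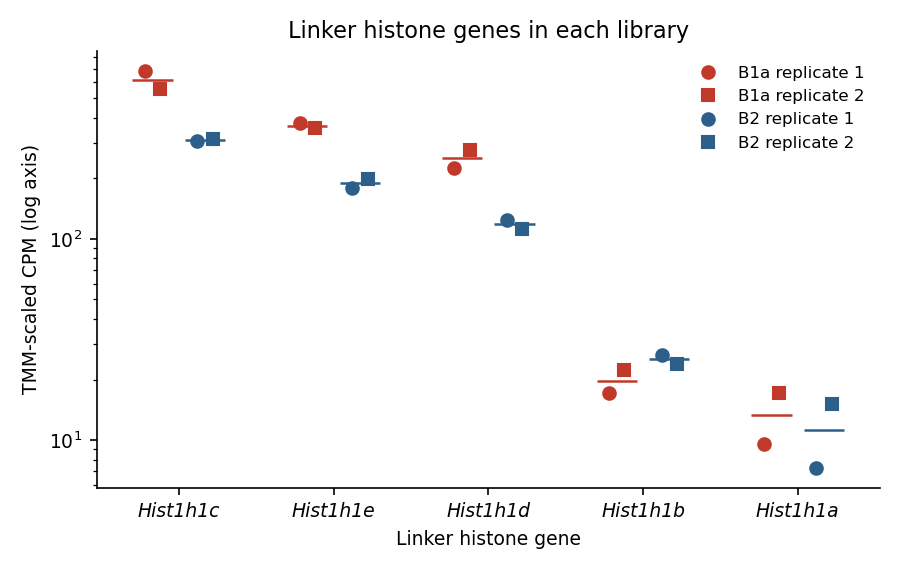
TMM-scaled CPM (vertical, log axis) of 5 linker histone genes in each library; red points are B1a, blue points B2, circles replicate 1, squares replicate 2 and lines the group means. Hist1h1c, Hist1h1e and Hist1h1d lie higher in both B1a libraries, Hist1h1b lies lower in both, and the groups overlap for Hist1h1a.

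Reads of the H1 genes are divided little between members. At most 15.4% of the 75-base windows of any H1 gene occur in another gene of the table, and in Hist1h1a and Hist1h1b none do. Over all members the median share was 48.8%. In the 3 called H1 genes the share was 14.8% to 15.4%.

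Because these 3 genes were called and Hist1h1b was not, the 250 bases before their start sites are shown, from RefSeq promoters of GRCm38.p6 on the strand of the gene. Capitals mark matches on either strand to CCAAT, to the TATA element TATAAA and to the H1 element AAACACA. These searches used the 250 bases before and the 50 bases after each start, in 62 members with an entry. AAACACA was found in 5 of 6 H1 promoters and in 7.18% of all 32851 promoters.
Hist1h1c, chr13:23738557-23738806, forward strand: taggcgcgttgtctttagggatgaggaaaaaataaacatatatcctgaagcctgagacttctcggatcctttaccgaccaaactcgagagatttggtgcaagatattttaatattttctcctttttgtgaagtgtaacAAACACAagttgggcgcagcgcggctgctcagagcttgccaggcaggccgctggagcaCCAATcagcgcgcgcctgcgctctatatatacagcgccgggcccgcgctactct
Hist1h1d, chr13:23554782-23555031, forward strand: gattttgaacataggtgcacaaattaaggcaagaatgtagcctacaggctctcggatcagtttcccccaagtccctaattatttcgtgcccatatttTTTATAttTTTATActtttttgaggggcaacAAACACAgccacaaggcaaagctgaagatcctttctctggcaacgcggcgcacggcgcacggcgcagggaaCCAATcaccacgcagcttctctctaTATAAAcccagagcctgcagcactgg
Hist1h1e, chr13:23622559-23622808, reverse strand: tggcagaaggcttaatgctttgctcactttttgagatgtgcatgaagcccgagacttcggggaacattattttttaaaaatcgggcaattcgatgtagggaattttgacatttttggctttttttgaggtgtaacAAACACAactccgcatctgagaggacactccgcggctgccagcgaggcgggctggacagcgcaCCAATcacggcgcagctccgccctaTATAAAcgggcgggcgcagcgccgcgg
Hist1h1b, chr13:21780626-21780875, reverse strand: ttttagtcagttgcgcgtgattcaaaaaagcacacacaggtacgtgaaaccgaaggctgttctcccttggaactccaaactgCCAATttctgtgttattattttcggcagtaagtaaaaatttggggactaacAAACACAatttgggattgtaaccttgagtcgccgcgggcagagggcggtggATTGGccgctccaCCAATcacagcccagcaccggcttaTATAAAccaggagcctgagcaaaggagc
In all 4, AAACACA lies 112 to 122 bases before the start and a CCAAT lies 51 to 54 bases before it. Close to the start, TATAAA lies 26 bases before it in Hist1h1d, 27 in Hist1h1e and 28 in Hist1h1b, and these letters are not in the window of Hist1h1c. The promoter of Hist1h1b thus holds all of the elements searched for, as do those of Hist1h1d and Hist1h1e.

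Of the H2A genes, 16 of 18 were tested, 13 with a positive log2 fold change, and 1 was called. Hist1h2ap, at chr13:21833024-21833475, had 104 and 88.2 CPM in the B1a replicates and 23.2 and 38 CPM in the B2 replicates. The B1a libraries were clearly apart from the B2 libraries, and the log2 fold change was 1.65 (SE 0.31, edgeR adjusted p = 0.0372). All of its 75-base windows occur in its neighbour Hist1h2ao, so reads of the pair cannot be told apart and the division between them is an estimate of RSEM. Summed, the pair had 104 and 93.0 CPM in B1a and 26.7 and 41.0 CPM in B2, with a log2 fold change of 1.54 (SE 0.28) and an edgeR adjusted p of 0.0342 in a fit with near-identical copies merged.

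Hist2h2aa1, the H2A gene with the highest level at a mean of 551 TPM, had 150 and 98.0 CPM in B1a and 101 and 82.6 CPM in B2, and the groups overlapped. Its copy Hist2h2aa2 had 0 and 58.3 CPM in B1a and 0 and 25.1 CPM in B2. Hist2h2aa1 held more than its copy in every library, and all windows of Hist2h2aa2 occur in Hist2h2aa1. Their sum was steady within each cell type, at 150 and 156 CPM in B1a and 101 and 108 CPM in B2, without overlap. The log2 fold change of the sum was 0.55 (SE 0.15, edgeR adjusted p = 0.11), which did not pass.

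Hist1h2ac had 68.0 and 50.1 CPM in B1a and 20.1 and 26.5 CPM in B2 (log2 fold change 1.34, SE 0.31, edgeR adjusted p = 0.07). There was no overlap, and the gene passed in 4 of 7 alternative fits. Hist1h2ab had the largest log2 fold change of the tested H2A genes, 2.54 (SE 0.71, edgeR adjusted p = 0.116), from 67.3 and 17.6 CPM in B1a and 9.005 and 5.66 CPM in B2. Its B1a replicates differed by more than its lower B1a replicate differed from B2.

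**Figure D4:**
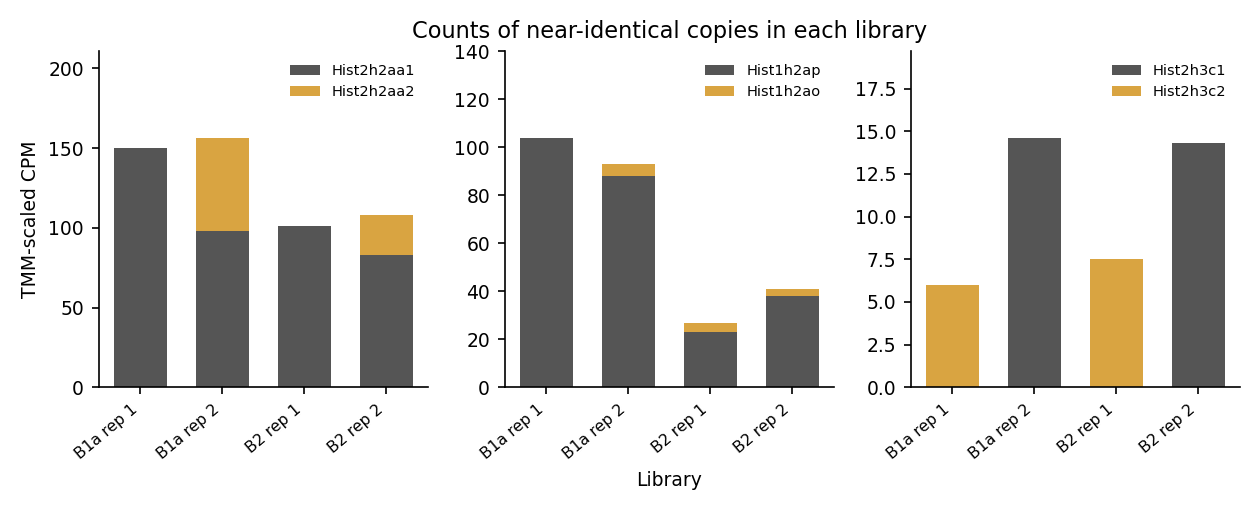
TMM-scaled CPM (vertical axis) of near-identical gene copies stacked in each of the 4 libraries, for Hist2h2aa1 with Hist2h2aa2, Hist1h2ap with Hist1h2ao, and Hist2h3c1 with Hist2h3c2. Hist2h3c1 and Hist2h3c2 hold the counts of their pair in different libraries, Hist2h2aa1 and Hist1h2ap hold most of theirs in every library, and the sum of the first pair is 150 and 156 CPM in B1a against 101 and 108 CPM in B2.

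Of the H2B genes, 18 of 19 were tested, 11 with a positive log2 fold change, and 2 were called. Hist1h2bn, at chr13:21754076-21754553, had the highest mean TPM of its class over the 4 libraries and the highest in both B1a libraries, while Hist1h2bg exceeded it in both B2 libraries. It had 194 and 160 CPM in the B1a replicates and 44.7 and 64.0 CPM in the B2 replicates. With no overlap, the log2 fold change was 1.70 (SE 0.24, edgeR adjusted p = 0.0149), and the call was kept in all 7 alternative fits. Its share of the H2B TPM was 32% and 25.2% in B1a and 17.5% and 19.4% in B2. Of its windows, 72.3% occur in other genes of the table.

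Hist1h2bc, whose RefSeq gene spans chr13:23684199-23692480, had 119 and 123 CPM in B1a and 45.4 and 59.8 CPM in B2. Again no overlap was seen, with a log2 fold change of 1.2 (SE 0.21, edgeR adjusted p = 0.0326). Of the windows of Hist1h2bc, 27.1% occur in other genes of the table. This share is taken over 1082 windows, against 390 for Hist1h2bg, so it does not show that reads of Hist1h2bc map to it alone. Hist1h2be had 136 and 97.4 CPM in B1a and 59.4 and 53.3 CPM in B2, without overlap. Its log2 fold change of 1.05 missed the threshold (SE 0.23, edgeR adjusted p = 0.0627). Of its windows 4.8% are shared, but they come from 3 GENCODE transcripts with 4443 windows, against 390 for Hist1h2bg. The share therefore does not show that its reads map to it alone. Hist1h2bg had 79.9 and 143 CPM in B1a and 57.5 and 70.2 CPM in B2 (log2 fold change 0.80, SE 0.31, edgeR adjusted p = 0.222). The same order was seen in it, with wider B1a replicates. The tested H2B gene with the largest log2 fold change, Hist1h2bp, rested on 1 library, at 0 and 145 counts in B1a and 22.3 and 0 counts in B2 (log2 fold change 2.78, SE 2.82, edgeR adjusted p = 0.661).

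Many H2A and H2B genes are arranged as divergent pairs with a common promoter region, and 12 such pairs were found among the members, with 163 to 280 bases between the starts of the pair. The narrowest gap lies between Hist1h2bn and Hist1h2ak, and the sequence before the start of Hist1h2bn, which includes the gap, is shown with matches to CCAAT and TATAAA on either strand in capitals.
Hist1h2bn, chr13:21753826-21754075, forward strand: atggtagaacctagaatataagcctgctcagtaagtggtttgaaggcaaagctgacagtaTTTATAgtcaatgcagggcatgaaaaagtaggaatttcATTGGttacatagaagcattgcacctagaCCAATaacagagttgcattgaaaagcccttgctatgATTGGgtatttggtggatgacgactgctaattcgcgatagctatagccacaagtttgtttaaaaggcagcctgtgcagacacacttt
Hist1h2bn is read to the right of this sequence and Hist1h2ak from the opposite strand. CCAAT was found in 53 of 62 member promoters (85.5%) and in 37.4% of all promoters, with 3 of 12 among the H4 genes. The octamer ATTTGCAT was found in 7 of 18 H2A and 7 of 16 H2B promoters, in none of the H1, H3 and H4 promoters, and in 1.74% of all promoters. It is not in the window of Hist1h2bn.

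Partners of a pair differed in level. Hist1h2ak had 190 and 137 TPM in B1a and 66.3 and 103 TPM in B2, against 1252 and 1010 TPM in B1a and 339 and 479 TPM in B2 for Hist1h2bn. Both were higher in both B1a libraries, with log2 fold changes of 1.18 for Hist1h2ak, which did not pass (edgeR adjusted p = 0.188), and 1.70 for Hist1h2bn. Hist1h2ac and Hist1h2bc, a pair with a gap of 239 bases, had log2 fold changes of 1.34 and 1.2. In the pair Hist2h2ac and Hist2h2be, which lies in the Hist2 cluster, the values were 0.28 and 0.67, neither past the threshold. Other pairs differed in sign: Hist1h2ap had 1.65 beside -0.13 for Hist1h2br, and Hist1h2ad 0.32 beside -0.07 for Hist1h2bf. Both values were negative in Hist1h2bl (-0.08) with Hist1h2ai (-1.02) and in Hist1h2bq (-0.13) with Hist1h2ao (-0.43). Both were positive in Hist1h2an with Hist1h2bp, Hist1h2ag with Hist1h2bj and Hist1h2ae with Hist1h2bg. In the remaining pairs a partner was not tested.

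No H3 gene was called among 12 tested, 10 of them with a positive log2 fold change. At an unadjusted p under 0.05, 3 were higher in B1a and 1, Hist1h3g, was higher in B2. DESeq2 called 2, Hist1h3f and Hist1h3i, both higher in B1a. Hist1h3e led the class with a mean of 585 TPM and had 96.2 and 129 CPM in B1a and 68.7 and 85.2 CPM in B2 (log2 fold change 0.55, SE 0.23, edgeR adjusted p = 0.249). The B1a libraries were higher, by less than for the linker histones.

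Hist1h3a had 49.9 and 49.6 CPM in B1a and 22.9 and 26.7 CPM in B2 (log2 fold change 1.01, SE 0.27, edgeR adjusted p = 0.108). Hist1h3f had 145 and 70.7 CPM in B1a and 34.6 and 34.3 CPM in B2 (log2 fold change 1.64, SE 0.37, edgeR adjusted p = 0.0635). Neither gene showed overlap of the groups. Hist1h3i had 39.3 and 50.2 CPM in B1a and 14.9 and 17.1 CPM in B2, again without overlap (log2 fold change 1.48, SE 0.33, edgeR adjusted p = 0.0625). It passed in 6 of 7 alternative fits, both limma fits on TPM included, Hist1h3f passed in 4 and Hist1h3a in 1. Hist1h3g went the other way. It had 0 counts in both B1a libraries and 19.7 and 45.4 counts in the B2 libraries, at least 7.58-fold lower in B1a with a floor of 3 counts per library (edgeR adjusted p = 0.16), and limma on log2(TPM + 1) called it lower in B1a (adjusted p = 0.0394).

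No H4 gene was called among 13 tested, 11 of them with a positive log2 fold change. At an unadjusted p under 0.05, 3 were higher in B1a, and DESeq2 called 0. Hist1h4n led with a mean of 820 TPM and had 151 and 109 CPM in B1a and 49.3 and 87.0 CPM in B2 (log2 fold change 0.93, SE 0.32, edgeR adjusted p = 0.18). The groups did not overlap. With its near-identical copy Hist1h4m, it summed to 174 and 126 CPM in B1a and 60.7 and 93.0 CPM in B2 (log2 fold change 0.96, SE 0.28, edgeR adjusted p = 0.122).

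Hist1h4d, of whose windows 13.1% are shared, had 99.7 and 101 CPM in B1a and 53.1 and 71.3 CPM in B2 (log2 fold change 0.69, SE 0.22, edgeR adjusted p = 0.155). Hist1h4c had 81.3 and 93.5 CPM in B1a and 58.6 and 76.6 CPM in B2 (log2 fold change 0.37, SE 0.23, edgeR adjusted p = 0.435). In both genes the groups did not overlap. Hist1h4b had the largest absolute log2 fold change of the class, -2.17 (SE 1.45, edgeR adjusted p = 0.48), from 0.192 and 5.17 CPM in B1a and 7.72 and 16.7 CPM in B2. The H4 genes encode the same protein, so the class sum adds up mRNAs of that protein. The sum covers only the listed genes and only the RNA that was selected.

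The Hist1 cluster on chromosome 13, with 54 members over 2219 kb, held all 6 calls. Its members fall in 4 stretches divided by gaps of over 100 kb. The first, with 18 members over 122 kb, summed to 624 and 590 CPM in B1a and 227 and 346 CPM in B2, a 2.12-fold difference with 2 calls. The third, with 29 members over 233 kb, held the most counts, at 2435 and 2368 CPM in B1a and 1186 and 1367 CPM in B2, a 1.88-fold difference with 4 calls. The median log2 fold change was 0.77 in the first and 0.76 in the third, so the difference was not found in one stretch alone.

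The fourth stretch holds only Hist1h2aa and Hist1h2ba, a divergent pair expressed in testis, and both had 0 counts in every library. The second, with 5 members, summed to 41.6 and 66.1 CPM in B1a and 24.7 and 27.9 CPM in B2. Outside Hist1 lie 14 members, of which Hist2h2aa1 had the highest TPM and none was called. The 10 members of the Hist2 cluster on chromosome 3 summed to 350 and 257 CPM in B1a and 195 and 232 CPM in B2, a 1.42-fold difference without overlap. In 0 of the 10 did both B1a libraries lie above both B2 libraries, which depends in part on how RSEM divides reads between copies. Hist2h2aa1 and Hist2h2aa2 summed to 150 and 156 CPM in B1a and 101 and 108 CPM in B2, also without overlap. The 3 Hist3 members on chromosome 11 summed to 39.2 and 38.1 CPM in B1a and 20.3 and 17.6 CPM in B2, most of it from Hist3h2a, whose windows all occur in an annotated transcript of Trim17. Hist4h4 on chromosome 6 had 21.8 and 8.27 CPM in B1a and 7.28 and 11.9 CPM in B2, with overlap.

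**Figure D5:**
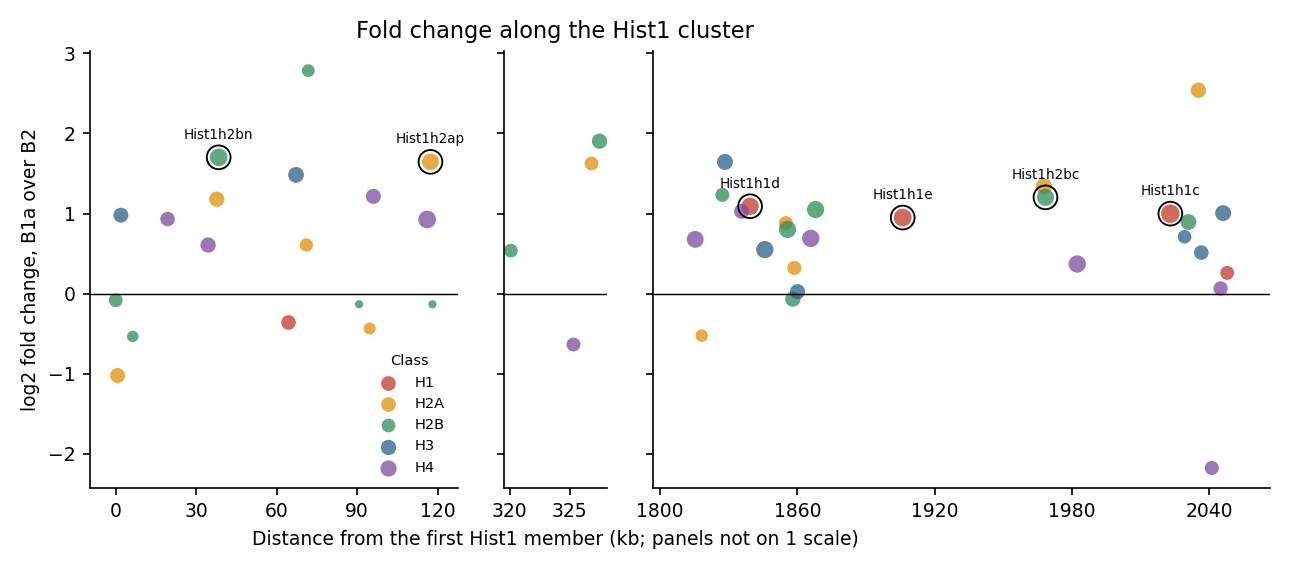
log2 fold change of B1a over B2 (vertical axis) of the tested Hist1 members against their distance in kb from the first member (horizontal axis, in 3 panels on different scales), coloured by class; the area of a point rises with the log10 of its mean TPM, and rings mark the 6 called members. The calls lie in the first and the third stretch, at log2 fold changes of 0.95 to 1.70; Hist1h3g and the members that were not tested are left out.

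Several members were counted in 1 replicate of a cell type and not in the other. At least 100 counts in one B1a replicate and at most 3 in the other were found for 6 members, Hist1h2ad, Hist1h2bp, Hist1h3c, Hist1h4i, Hist2h2aa2 and Hist2h3c1, among 200 such genes in the whole table. In B2 cells there were 2 among 4 genes, Hist2h2aa2 and Hist2h3c1. Hist1h2ad had 0 and 272 counts in B1a and 147 and 131 counts in B2, and Hist1h3c had 0 and 178 in B1a and 24.8 and 145 in B2. In each of the 6 the replicate with few counts was B1a replicate 1.

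For Hist2h3c1 the missing counts lay in its copy. Hist2h3c1 had 0 and 163 counts in B1a and 0 and 274 counts in B2, and Hist2h3c2 was at 0 where Hist2h3c1 was not, so that the pair summed to 6.01 and 14.6 CPM in B1a and 7.5 and 14.3 CPM in B2 with overlap. Hist1h2ad was merged with its near-identical copies Hist1h2ah and Hist1h2ai, the last of which had 147 counts in B1a replicate 1. They summed to 13.2 and 30.4 CPM in B1a and 21.6 and 38.6 CPM in B2, with overlap. The log2 fold change of this sum was -0.47 (SE 0.53, edgeR adjusted p = 0.705). RSEM's posterior standard deviation exceeded 10% of the count in 11 members. For the 6 members with few counts in B1a replicate 1, the standard error of the log2 fold change lay between 1.48 and 2.82, and none was called.

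Genes that act on histone mRNA were looked at in the same fit. Of 26 tested genes for its processing, transcription and decay, 0 were called, and the median log2 fold change was -0.25. At an unadjusted p under 0.05, 4 were higher in B2, and DESeq2 called 1 of them, Cpsf2. Slbp, the stem-loop binding protein, had 16 and 59.3 CPM in B1a and 47.6 and 47.4 CPM in B2 (edgeR adjusted p = 0.825). Npat, the coactivator that switches the clusters on at S phase entry, had 26.1 and 59.9 CPM in B1a and 53.6 and 70.6 CPM in B2 (edgeR adjusted p = 0.568). The groups overlapped for both, and B1a replicate 1 was the lowest library in both.

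Most histone genes outside the clusters give polyadenylated mRNA through the whole cell cycle. Of 10 tested, 0 were called, 4 were higher in B1a and 1 in B2 at an unadjusted p under 0.05, and DESeq2 called H2afz and H1f0 higher and H3f3a lower in B1a. H3f3a, which encodes the variant H3.3, had 322 and 398 CPM in B1a and 456 and 613 CPM in B2 (log2 fold change -0.57, SE 0.19, edgeR adjusted p = 0.162), and H3f3b, which encodes the same protein, had 453 and 516 CPM in B1a and 429 and 336 CPM in B2 (log2 fold change 0.34, SE 0.16, edgeR adjusted p = 0.3). These genes differed in opposite directions, each without overlap. H2afz, the gene of H2A.Z, had 97.8 and 64.1 CPM in B1a and 42.8 and 33.4 CPM in B2 (log2 fold change 1.09, SE 0.30, edgeR adjusted p = 0.11). H2afx had 4.94 and 18.5 CPM in B1a and 22.7 and 26 CPM in B2 (edgeR adjusted p = 0.463). The summed level of the list was 1208 and 1268 CPM in B1a and 1240 and 1294 CPM in B2, with overlap, unlike the sums of the cluster genes.

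Of 19 tested histone chaperone genes, 1 was called. Nap1l1, a chaperone of H2A and H2B, had 715 and 844 CPM in B1a and 453 and 463 CPM in B2 (log2 fold change 0.77, SE 0.12, edgeR adjusted p = 0.0253). Both B1a libraries were higher, and both limma fits on TPM lost the call. The median log2 fold change of the list was -0.44, and DESeq2 also called Nap1l4 lower in B1a. Nasp, a carrier of H1, H3 and H4, had 30.4 and 20.6 CPM in B1a and 49.0 and 42.1 CPM in B2 (log2 fold change -0.84, SE 0.32, edgeR adjusted p = 0.219).

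Of 27 tested S phase genes, 0 were called, with a median log2 fold change of -0.11 and 11 positive values. At an unadjusted p under 0.05, 2 were higher in B1a, Cdc6 and Ccne1, which DESeq2 called. Both B1a libraries lay above both B2 libraries in 5 and below them in 10 of the 28 genes listed. Of 15 tested mitosis genes, 1 was called, with a median log2 fold change of 0.00. It was Mki67, a marker of cycling cells, with 105 and 87.4 CPM in B1a and 23.4 and 40.5 CPM in B2 (log2 fold change 1.59, SE 0.32, edgeR adjusted p = 0.0488). Both B1a libraries were higher, but the call was lost in both limma fits on TPM (adjusted p = 0.17 and 0.183) and without B2 replicate 1 (edgeR adjusted p = 0.169). At an unadjusted p under 0.05, 2 mitosis genes were lower in B1a, Cdc20 with 0 and 0 CPM in B1a and 4.42 and 5.78 CPM in B2, which DESeq2 called, and Bub1b with 1.88 and 0.629 CPM in B1a and 9.62 and 8.51 CPM in B2 (edgeR adjusted p = 0.0923 and 0.217).

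Markers of other cell types differed between the groups. Of 6 tested macrophage markers, 1 was called, Lyz2, and the 8 listed summed to 169 and 191 CPM in B1a and 53.3 and 52.4 CPM in B2, with Fcgr1 at 0 in both B1a libraries. The 5 erythroid markers, 1 of them called, summed to 78.7 and 504 CPM in B1a and 36.1 and 80.8 CPM in B2. The 3 mast cell markers reached 17.4 and 5.12 CPM in B1a and 0 and 0.94 CPM in B2, the 4 neutrophil markers at most 0.971 CPM in B1a and 10.9 CPM in B2, and the 8 T cell markers 75.6 to 124 CPM in B1a and 83.5 to 87.4 CPM in B2, with 0 called by edgeR in each of these lists and Cd4 at 0 in both B1a libraries. In these lists an unadjusted p under 0.05 was found for 1 mast cell marker and 1 T cell marker, and DESeq2 called Tpsb2 higher and Cd4 lower in B1a. The plasma cell markers, with Prdm1 called higher in B1a and Tnfrsf17 at 0 in every library, summed to 437 and 632 CPM in B1a and 339 and 382 CPM in B2. Most of this sum was Irf4, at 355 and 529 CPM in B1a and 262 and 274 CPM in B2, while Sdc1 lay lower in B1a, at 0 and 8.27 CPM against 13.4 and 25.2 CPM, and Xbp1 overlapped. The germinal centre markers, with Bcl6 called lower in B1a, summed to 44.7 and 32.7 CPM in B1a and 146 and 167 CPM in B2. Of the 8 B cell markers, Cd79a and Ms4a1 were called higher in B1a and Pax5, Ebf1 and Cd22 lower. The part of other cells in the histone levels was not tested.

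Some of the 6 calls were lost when 1 library was left out. Without B2 replicate 1, Hist1h1e, Hist1h2ap and Hist1h2bc lost the threshold, while their log2 fold changes stayed at 0.87, 1.33 and 1.02. In that fit the lone B2 library is assumed to vary like the B1a pair. Of 7 alternative fits with all libraries (DESeq2, its size factors, 2 filters, 2 limma fits on TPM and a replicate block), Hist1h2bn passed in 7, Hist1h1d, Hist1h1e, Hist1h2ap and Hist1h2bc in 6 and Hist1h1c in 5. Each loss came in a limma fit on TPM. Without B1a replicate 1 or B1a replicate 2, 36 and 41 members were called, 32 and 28 of them higher in B1a, in fits where the lone B1a library is assumed to vary like the B2 pair.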

How the data were processed

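RNA-Seq data of 2 wild-type B1a and 2 wild-type B2 libraries were analyzed, grouped and numbered by the labels. Reads had been mapped to mm10 RefSeq genes and quantified with RSEM (version 1.2.29 per the submitters' processing notes). The authors deposited expected counts, not normalized, in which RSEM splits a read that matches more than one entry. TPM and a signal column, the posterior standard deviation of each count, were deposited beside them, and the deposited FPKM was not used. The 21970 entries were summed by symbol to 20599 genes and the sums rounded.

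After filterByExpr and TMM scaling (factors 0.964 and 0.963 for B1a, 1.05 and 1.03 for B2), genes were tested with glmQLFTest of edgeR 4.0.16 (R 4.3.3), with Benjamini-Hochberg adjustment over all tested genes, a threshold of 0.05 and no fold minimum. Standard errors were derived from the F statistic. The test was checked on simulated data. EBSeq, which the methods name, was not run. Library totals lay between 11032732 and 18588623 counts. Libraries of a group are separate animals by the study's account. The p-values set the group difference against the spread between these libraries, which edgeR moderates over all tested genes.

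Members were placed on GRCm38.p6 by RefSeq accession (67 of 68 matched), and promoters are from RefSeq. Shared reads were estimated as the percentage of 75-base windows of a gene's GENCODE vM21 transcripts that occur in another gene, and copies sharing at least 80% were called near-identical.

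The members, gene lists and tests were chosen with earlier results of these data known. Named members are those called, the 3 of highest mean TPM and the 1 of largest absolute log2 fold change in each class, those of at least 100 counts beside at most 3 in the other replicate, the testis members, those at 0 throughout, and the highest outside Hist1. Hist1h1a, Hist1h1b, Hist1h2ae, Hist1h2ag, Hist1h2ah, Hist1h2ai, Hist1h2ak, Hist1h2an, Hist1h2ao, Hist1h2bf, Hist1h2bj, Hist1h2bl, Hist1h2bq, Hist1h2br, Hist1h3i, Hist1h4m, Hist2h2ac, Hist2h2bb, Hist2h2be, Hist2h3c2, Hist3h2a, Hist4h4, H1f0, Nap1l4, Sdc1, Xbp1, Irf4, Cdc20, Bub1b, Cpsf2, Cdc6 and Ccne1 were named after their values were seen. Alternatives were DESeq2 1.42.0, its size factors in edgeR, 2 other filters, limma 3.58.1 on log2(TPM + 1) and log2(TPM + 0.1) where the mean TPM was at least 1, a replicate block, unsummed entries, sums without uncertain or zero members, and each library left out. A fit with near-identical copies merged was added after the data were seen.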

Additional observations from a re-analysis of the deposited data

How the results depend on the processing

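The number of members called, 6, was the same with DESeq2 size factors in edgeR, with unsummed entries and with near-identical copies merged, and reached 8 (7 higher and 1 lower in B1a) for limma on log2(TPM + 1). It rose to 12 with DESeq2, 11 without a filter beyond 1 count and 10 with at least 10 counts in every library, and fell to 2 with limma on log2(TPM + 0.1). Over all genes the number moved from 693 to 1550 with DESeq2, 1141 without a filter and 359 with limma on log2(TPM + 0.1). With a replicate block it was 1481 genes and 13 members, but the libraries share only a number: the deviations of same-numbered libraries from their group means had a correlation of -0.035 over 12078 genes. Leaving out 1 library gave 539 to 6143 genes and 5 to 41 members, the high counts coming without B1a replicate 1 (3953 genes, 2050 higher in B1a) or B1a replicate 2 (6143 genes, 2787 higher in B1a), where the lone B1a library is assumed to vary like the B2 pair. The cause of the other changes was not tested.

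Every class stayed higher in B1a in each alternative. The log2 ratio of 0.96 for H1 moved to 0.85 without a scaling factor and 0.72 with sums of TPM, and that of 0.91 for H2A to 0.69 with sums of TPM, shifts also seen in the median of all genes. Sums of TPM also lowered the fold differences of the other classes. They fell from 2.06 to 1.80 for H2B, 1.83 to 1.47 for H3 and 1.54 to 1.32 for H4. With 1 library left out the lowest log2 ratio was 0.38 for H4 and the highest 1.23 for H2B. Members at 0 in 1 library changed direction. Hist1h2ad (0.32) fell to -2.34 and -3.98 with limma on log2(TPM + 1) and log2(TPM + 0.1), to -2.07 with the replicate block, and lay between -10.1 and 1.33 with 1 library left out. Hist1h3c (0.71) fell to -1.56, -3.18 and -1.69 in the same fits and lay between -9.10 and 1.87. Hist2h3c1 (0.03) gave -0.11 in both limma fits and lay between -9.67 and 9.37. With 1 library left out, Hist1h2bp lay between -6.70 and 9.49, Hist1h4i between -4.83 and 0.33 and Hist2h2aa2 between -10.5 and 11.4. These fitted values against a group at 0 depend on the prior count and are no measure of size. Of the 16 tested members of lowest level, at most 7.23 CPM, only Hist1h3g had groups that did not overlap, and none was called by edgeR.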
